A study of Mus musculus with 12 samples.

Results

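The set comprised 41 mouse genes of protein folding, taken by symbol from a list and matched to the Ensembl identifiers of the count tables, which hold 49315 genes. Of these, 25 act in the endoplasmic reticulum (ER) and its unfolded protein response, and 16 are heat shock genes of the cytosol or the mitochondria. All 41 were found, and all 41 passed the filter on low counts that left 17164 genes for testing. RNA came from primary glia labelled Müller cells, grown from the retina of wild-type (WT) mice and passaged at least 3 times, which shared transwell plates with primary retinal pigment epithelium (RPE) cells, also passaged at least 3 times. The 4 groups of 3 libraries were glia facing RPE cells given 100 nM PNU-282987 (PNU) for 2 h, glia facing RPE cells given the solvent DMSO for 2 h, and the same pair of treatments at 6 h. PNU-282987 activates α7 nicotinic acetylcholine receptors, and the PNU groups received DMSO as well. The labels give the solvent as 0.1% in one place and 1% in another. They call the samples biological replicates without tying them to different animals or cultures, so the p-values reflect library-to-library spread, which may be technical.

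Proteins that enter the ER fold with the help of the HSP70-type chaperone BiP (Hspa5), the HSP90-type chaperone GRP94 (Hsp90b1), the lectins calnexin and calreticulin, and disulfide isomerases. When unfolded protein builds up there, the membrane sensors IRE1α (Ern1), PERK (Eif2ak3) and ATF6 start the unfolded protein response, whose transcription factors XBP1, ATF4 and cleaved ATF6 raise chaperone and degradation genes. In the cytosol, heat or other damage to proteins releases the transcription factor HSF1, which raises HSP70, HSP90, J-domain and small heat shock genes. Müller glia span the retina, support its neurons and are known to express the small heat shock proteins αB-crystallin (Cryab) and HSP27 (Hspb1, called HSP25 in mouse) under stress.

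The promoters of ER and heat shock members held different sequence elements. RefSeq promoter windows (assembly GRCm38.p6, 250 bases before to 50 bases after the transcription start) were found for 31 members, 21 of the ER and 10 of the heat shock genes, in 37 windows. Both strands were searched. The ER stress element, CCAAT and CCACG with 9 bases between them, which ATF6 and XBP1 bind together with NF-Y, was present in 9 of 21 ER members (Calr, Canx, Creld2, Derl3, Dnajc3, Hsp90b1, Hspa5, Pdia6 and Syvn1) and 0 of 10 heat shock members, against 0.137% of all 27025 genes with a window. Its variant ERSE-II, ATTGG and CCACG with 1 base between them, was in the windows of Dnajb11 and Herpud1, against 0.0444% of all genes. The heat shock element, TTC, GAA and TTC in turn with 2 bases between neighbours, or the reverse complement of this, which HSF1 binds, was in 3 of 10 heat shock members (Hspd1, Hspe1 and Hsph1) and 0 of 21 ER members, against 0.662% of all genes. A shorter pair, GAA and TTC with 2 bases between them, which overlaps the full element, was in 9 of 10 heat shock members (not Dnajb1) and 0 of 21 ER members, against 9.04% of all genes. In Hspa5 the ER stress element began at position -65, and TGACGTG, a core that XBP1 and ATF6 can bind (in 2.22% of all genes), at -157. These matches are letters in a window, and binding was not measured.

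The windows of 5 members are printed to show the ER stress element in both orientations, ERSE-II, the heat shock element and the shorter pair. Each is the 250 bases upstream of the RefSeq start, 5′ to 3′ on the gene's own strand, with matches in capitals. In Canx (chr11:50325674-50325923, minus strand), the gene of the lectin calnexin, the capitals mark the ER stress element at position -145, read on the gene's own strand.
Canx: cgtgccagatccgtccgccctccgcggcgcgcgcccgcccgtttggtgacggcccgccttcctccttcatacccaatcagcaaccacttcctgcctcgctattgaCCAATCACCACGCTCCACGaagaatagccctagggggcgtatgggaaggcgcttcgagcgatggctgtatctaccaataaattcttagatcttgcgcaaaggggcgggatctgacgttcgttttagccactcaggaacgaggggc
In Calr (chr8:84846932-84847181, minus strand), the most abundant ER member, they mark the ER stress element on the opposite strand at -162.
Calr: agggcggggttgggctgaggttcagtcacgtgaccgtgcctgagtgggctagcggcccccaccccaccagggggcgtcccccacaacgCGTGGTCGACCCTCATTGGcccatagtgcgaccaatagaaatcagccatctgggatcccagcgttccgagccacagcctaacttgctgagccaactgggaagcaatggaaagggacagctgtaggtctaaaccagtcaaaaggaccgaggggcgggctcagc
In Herpud1 (chr8:94386179-94386428, plus strand) they mark TTGCATCA, an element of the kind that ATF4 binds (in 1.03% of all genes), at -112, and ERSE-II at -52.
Herpud1: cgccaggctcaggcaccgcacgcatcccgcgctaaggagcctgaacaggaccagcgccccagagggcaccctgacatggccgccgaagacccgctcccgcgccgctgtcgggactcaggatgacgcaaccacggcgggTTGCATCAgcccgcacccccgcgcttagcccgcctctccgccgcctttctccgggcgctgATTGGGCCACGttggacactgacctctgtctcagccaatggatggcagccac
In Hspe1 (chr1:55087898-55088147, plus strand), which shares this region head to head with Hspd1, they mark the heat shock element, which matches in both orientations over overlapping bases.
Hspe1: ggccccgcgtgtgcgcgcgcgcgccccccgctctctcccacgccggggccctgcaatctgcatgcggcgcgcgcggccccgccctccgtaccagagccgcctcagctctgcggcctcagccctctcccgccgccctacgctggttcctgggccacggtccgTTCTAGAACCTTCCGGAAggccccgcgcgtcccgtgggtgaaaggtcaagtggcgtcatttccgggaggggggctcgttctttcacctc
In Hspb1 (chr5:135887669-135887918, plus strand) they mark both copies of the shorter pair.
Hspb1: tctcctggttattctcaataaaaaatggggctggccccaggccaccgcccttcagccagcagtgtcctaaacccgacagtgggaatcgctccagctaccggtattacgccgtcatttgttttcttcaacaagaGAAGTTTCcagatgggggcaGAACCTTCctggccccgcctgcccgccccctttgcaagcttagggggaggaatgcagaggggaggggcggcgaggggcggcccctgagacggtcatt

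**Figure D1:**
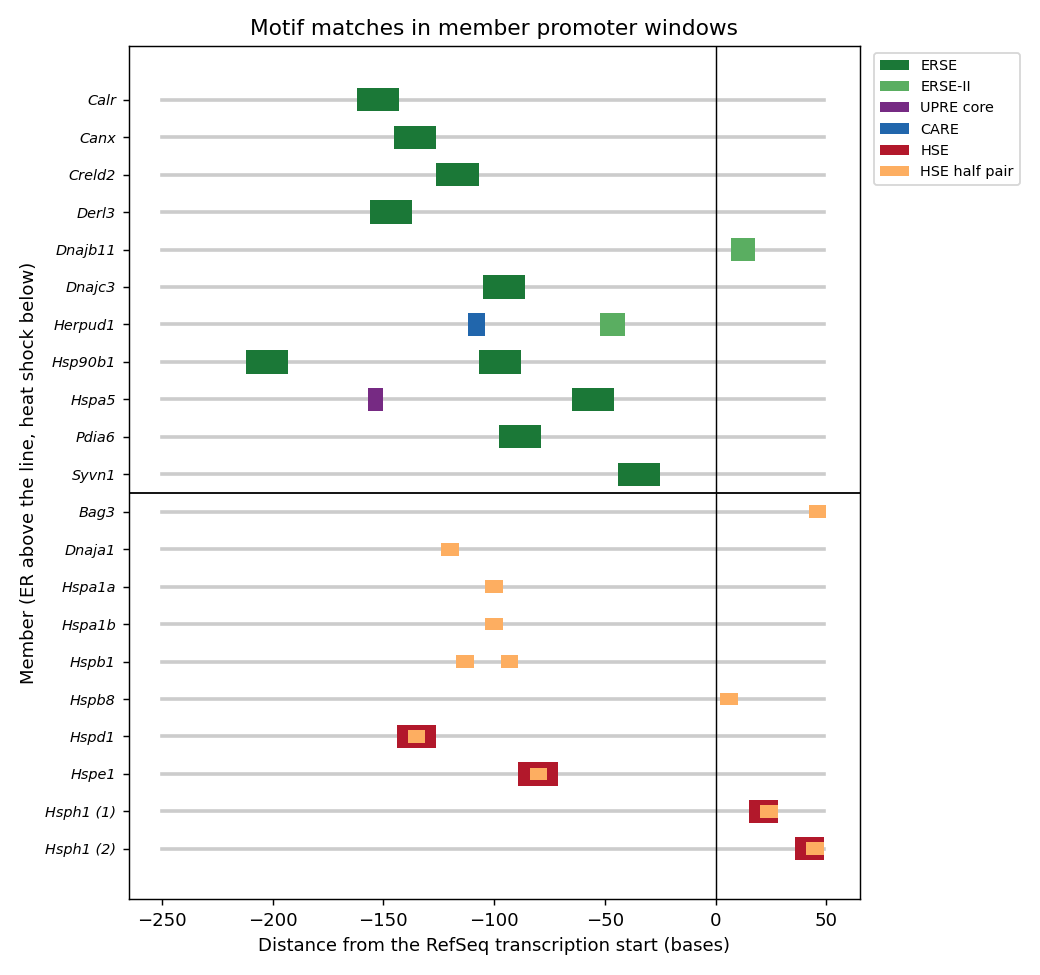
Motif matches in the promoter windows of the members that hold at least 1. The x axis is the distance from the RefSeq transcription start in bases, each grey line is 1 window, and each box is a match; ER members stand above the dividing line and hold only ER stress, UPRE or CARE matches, and heat shock members stand below it and hold only heat shock element matches.

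Libraries held 44332013 to 66518799 counts. The lowest library of a member held 5 counts for Derl3 and 392 for Hspa1a, the next lowest. Markers of the labelled cell type were present only in part: Vim stood at 5867 to 7542 CPM (library-size scaled counts, with TMM factors) and Glul at 62.0 to 93.8 CPM, but Slc1a3 reached at most 3.70 CPM, Rlbp1 at most 0.296 CPM and Aqp4 at most 0.214 CPM, while the fibroblast gene Col1a1 stood at 3431 to 5111 CPM. In bulk RNA, a change in the share of a cell type and a change in RNA per cell cannot be told apart. Replicates 2 and 3 of PNU were near copies of each other at 2 h and again at 6 h, as were the 3 DMSO libraries at 6 h, which makes 5 close pairs. Their coefficients of variation between the libraries of a pair were 0.0201 to 0.0249, against 0.0979 to 0.287 in the other 7 same-group pairs. These were computed over genes of high mean count, with counting noise subtracted. The counts of the close pairs still differed by more than sampling noise (chi-square over degrees of freedom 1.98 to 3.19, against 23.2 to 254 in the other same-group pairs). This cannot tell separate cultures from repeat libraries of 1 culture. The close pairs were kept as separate libraries in the main fit and summed as an alternative. Summing leaves 2 PNU and 3 DMSO samples at 2 h, and 2 PNU samples and 1 DMSO sample at 6 h. DMSO at 2 h replicate 3 stood nearer to the PNU mean at 2 h than to its own group's other libraries for 20 of 25 ER and 11 of 16 heat shock members. PNU at 6 h replicate 1 likewise stood nearer to DMSO at 6 h for 11 of 25 and 11 of 16. The share over all genes was not computed for these counts, but both libraries stood apart as a whole. By the same coefficient of variation, DMSO at 2 h replicate 3 stood at 0.0921 to 0.105 from the PNU libraries at 2 h, against 0.249 and 0.287 from its own group. PNU at 6 h replicate 1 stood at 0.124 to 0.126 from the DMSO libraries at 6 h, against 0.175 and 0.177 from its own group. For Ddx3y and Xist, CPM was taken over total counts without TMM factors. The Y-linked gene Ddx3y stood at 7.43 and 6.74 CPM in PNU at 6 h replicates 2 and 3, at 0.141 CPM or less in PNU replicate 1 and every DMSO library at 6 h, and at 2 h at 2.23 CPM in PNU replicate 1 and 5.00 CPM in DMSO replicate 3. Xist, transcribed from the inactive X chromosome, stood at 0.0653 to 0.133 CPM with PNU at 2 h, against 0.777, 0.888 and 0.0469 CPM in DMSO replicates 1, 2 and 3. For Xist at 6 h, the DMSO libraries lay between 0.969 and 1.23 CPM. PNU replicate 1 was below them (0.439 CPM), while replicate 2 (2.46 CPM) and replicate 3 (2.13 CPM) were above. Neither gene divided fully by treatment. At 2 h DMSO replicate 3 was as low in Xist as the PNU libraries, and at 6 h PNU replicate 1 was as low in Ddx3y as the DMSO libraries. Source of the culture, which the labels do not name, may thus be unevenly spread over the treatments. Its part in the PNU differences was not tested.

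Most of the set was expressed at high levels. Per transcript length, Hsp90ab1, the constitutive cytosolic HSP90, stood highest with a median of 1845 TPM (counts per gene length, scaled to library size) over the 12 libraries. Calr, the calcium-binding lectin chaperone calreticulin, followed with 1010 TPM, and Pdia3, the disulfide isomerase that works with the lectins, with 742 TPM. Hsp90b1 had 647 TPM, Hspa8, the constitutive HSP70, 624 TPM, Hspa5 575 TPM and Cryab 522 TPM. Of the ER members, 12 of 25 had a median of at least 100 TPM and 24 of 25 of at least 10 TPM, and of the heat shock members 9 of 16 and 16 of 16. The stress-inducible Hspa1a was the lowest heat shock member, at 8.37 to 14.6 TPM, the sensor Ern1 had 15.9 TPM, and Derl3, a derlin of ER-associated degradation, was the lowest of all at 0.588 TPM. Of the 150-base windows of Hspa1a 46.0%, and of those of Hspa8 22.4%, occur in transcripts of other genes. The rule for counting such reads is not known, so the places of such members in this order are uncertain. Ranges over the libraries overlapped between neighbours in this order from Pdia3 to Cryab, while Hsp90ab1, at 1688 to 1994 TPM, did not overlap Calr, at 923 to 1226 TPM. The steadiest members were Derl1, Pdia4 and Xbp1, with coefficients of variation of 4.60%, 6.02% and 6.08% over the 12 libraries. Derl3 varied most at 49.9%, followed by Hspb1 at 27.7%, Ern1 at 27.1%, Atf6 at 26.8%, Bag3 at 22.3% and Herpud1 at 21.8%.

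Summed over the ER members, PNU libraries at 2 h held 6840 ± 280.2 CPM, against 6590 ± 683 CPM in DMSO libraries (SD, n = 3 each). At 6 h the ER sum was 6940 ± 206 CPM with PNU, against 6401 ± 51.7 CPM with DMSO. The heat shock sum was 5709 ± 47.5 CPM with PNU at 2 h, against 5217 ± 546 CPM with DMSO. At 6 h it was 5303 ± 323 CPM with PNU, against 4801 ± 22.5 CPM with DMSO. In both lists the DMSO group at 2 h spread widely, and its replicate 3 held 7331 CPM of ER and 5837 CPM of heat shock transcripts, more than any PNU library at 2 h.

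The ER and heat shock members were set against each other within each library, as the median over a list of each gene's log2(CPM + 0.5) minus that gene's mean over all 12 libraries. The ER median minus the heat shock median was -0.12, -0.22 and -0.25 in PNU libraries at 2 h, against -0.08, 0.11 and -0.09 in DMSO libraries. At 6 h it was 0.16, -0.03 and -0.04 with PNU, against 0.08, 0.10 and 0.09 with DMSO. All 3 PNU libraries at 2 h thus had the heat shock members above the ER members on this relative scale, below every DMSO library at 2 h, and the PNU and DMSO ranges overlapped at 6 h. The heat shock median itself was 0.16, 0.18 and 0.20 with PNU at 2 h, against -0.0045, -0.18 and 0.19 with DMSO, so DMSO replicate 3 lay within the PNU range. These are descriptions of list medians, without a test.

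**Figure D2:**
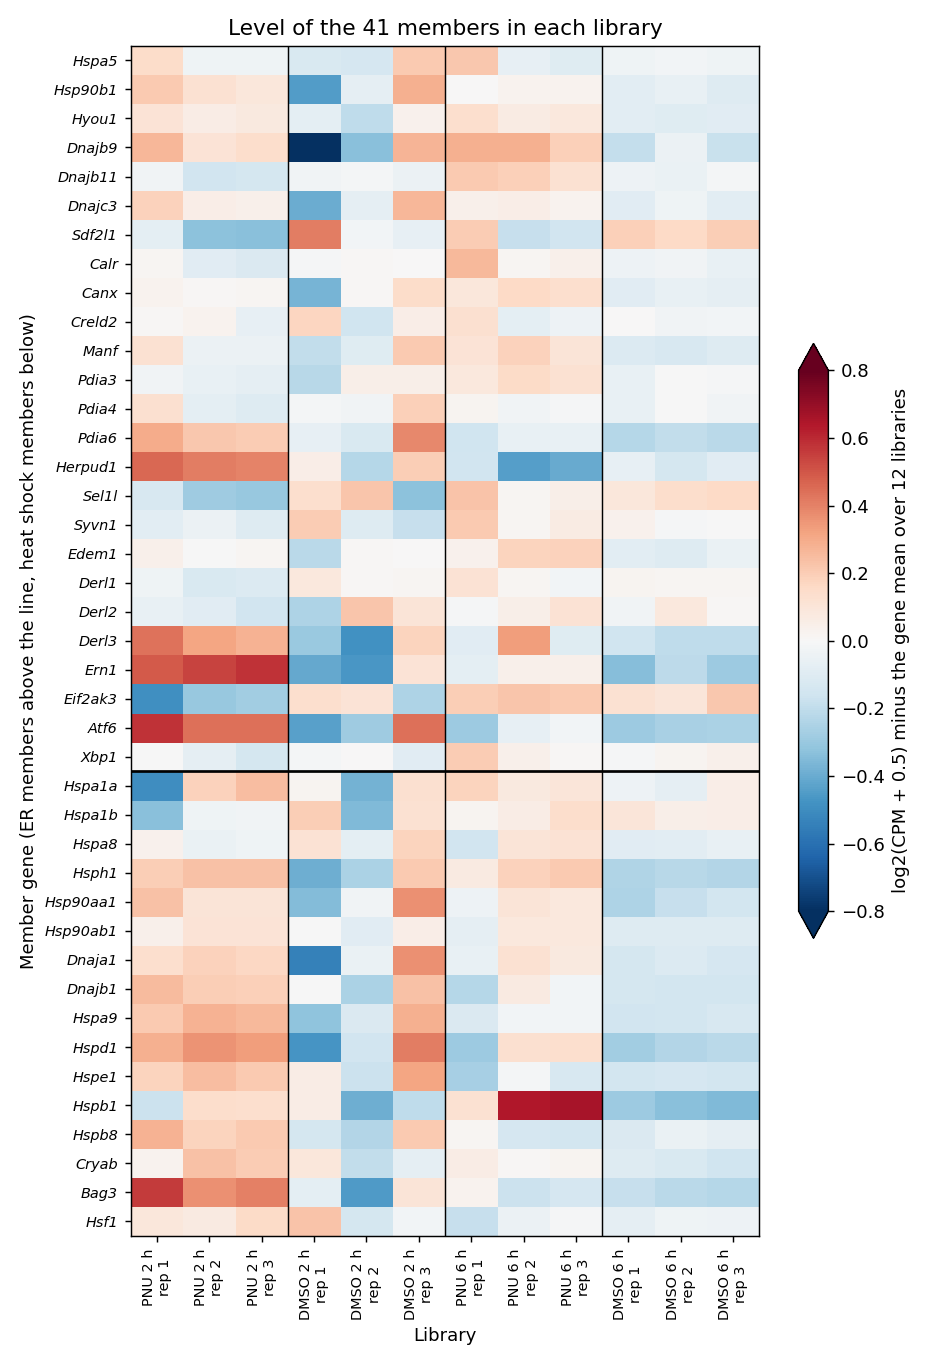
Level of each of the 41 members (rows) in each of the 12 libraries (columns), as log2(CPM + 0.5) minus the gene's mean over the 12 libraries; red is above and blue below that mean, and the horizontal line divides ER from heat shock members. DMSO at 2 h replicate 3 resembles the PNU libraries at 2 h in most rows, and the 3 DMSO libraries at 6 h are almost alike.

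At 2 h, Ern1 (ENSMUSG00000020715, GRCm38 chr11:106394650-106487852, minus strand) rose with PNU, 24 of 25 ER members did not pass the test, and 16 of 16 heat shock members did not pass. Ern1 encodes the sensor IRE1α, and this is 1 of 41 members, against 0.291% of all tested genes (50 of 17164, and 0.21% higher), by edgeR's quasi-likelihood test at a Benjamini-Hochberg adjusted p under 0.05. Fold changes were above 0 in 13 of 25 ER members (median log2 fold change 0.03), and in 14 of 16 heat shock members (median 0.20). The heat shock median was 0.10 without DMSO replicate 2 and 0.30 without DMSO replicate 3. Over all tested genes 48.3% were positive and the median was -0.01. The PNU and DMSO libraries did not overlap for 4 ER members above and 3 below and for 1 heat shock member above, where the shares over all genes were 11.4% above and 10.4% below. At an unadjusted p under 0.05 there were 12 members, against 30% of all genes.

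The summed Müller markers stood at 7744 to 7921 CPM with PNU at 2 h, against 6044 to 7534 CPM with DMSO, without overlap. This sum was mostly Vim, at 5867 to 7542 CPM over the 12 libraries, and the next gene, Sox9, reached at most 305 CPM. The leukocyte and microglia markers stood at 3.91 to 5.03 CPM with PNU at 2 h, against 1.98 to 4.29 CPM with DMSO, with overlap. The part of both lists in the result at 2 h was not tested. The count at 2 h rested on single libraries. Without DMSO replicate 3, 21 of 41 members passed, 18 higher and 3 lower, but so did 43.8% of all genes, counted in either direction. The shares of all genes called higher or lower in that fit are not given here. Without PNU replicate 2, PNU replicate 3, DMSO replicate 1 or DMSO replicate 2 the count was 0, against at most 0.00567% of all genes (0%, 0%, 0.00567% and 0.00566%). Among the 18 higher without DMSO replicate 3 were 9 ER members, such as Atf6 (log2 fold change 0.85), Dnajb9 (0.74) and Hsp90b1 (0.39), and 9 heat shock members, such as Bag3 (0.70), Hspd1 (0.63) and Hsph1 (0.54). The 3 lower were Eif2ak3 (-0.48), Sdf2l1 (-0.46) and Sel1l (-0.42).

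At 6 h, Hspb1 (ENSMUSG00000004951, GRCm38 chr5:135887919-135889563, plus strand) rose with PNU, 15 of 16 heat shock members did not pass, and 25 of 25 ER members did not pass. This is again 1 of 41 members, against 1.05% of all tested genes (0.571% higher). Fold changes were positive in 22 of 25 ER members, with a median of 0.11 (log2), and in 14 of 16 heat shock members, with a median of 0.13. Over all genes 49.3% were positive and the median was -0.0049. For 22 of the 41 members all 3 PNU libraries lay above all 3 DMSO libraries, 13 of them ER and 9 heat shock genes, and for 1 (Herpud1) all lay below. The shares over all genes were 16% above and 18.7% below. At an unadjusted p under 0.05 there were 7 members, against 15.6% of all genes.

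Fitting only the 6 libraries of 6 h called 11 members, all higher (7 ER and 4 heat shock genes, among them Dnajb9, Hsph1 and Manf), against 10.1% of all genes, and with near-identical libraries summed 0 passed, against 0 of 18400 genes (0%). In that summed fit 1 member, Hspb1, had an unadjusted p under 0.05, against 267 of all genes. The 10.1% of all genes in the fit of the 6 h libraries alone counts calls in either direction, and the share higher is not given here. Markers of other cell types also differed between the groups at 6 h. The summed leukocyte and microglia list stood at 7.38 to 9.23 CPM with PNU, against 1.94 to 2.84 CPM with DMSO. Of its 4 genes Csf1r reached 8.39 CPM, while Ptprc stayed at or below 0.233 CPM and Aif1 at or below 0.157 CPM in every library, both down to 0. The summed fibroblast and pericyte list stood at 15900 to 17030 CPM with PNU, against 14900 to 14990 CPM with DMSO, with 7 of its 8 genes above 15 CPM in every library and Lum down to 0. The summed RPE list was lower, at 2.91 to 4.38 CPM with PNU, against 4.78 to 5.01 CPM with DMSO, and its defining gene Rpe65 was at or below 0.0461 CPM. The endothelial list stood at 1.27 to 1.86 CPM with PNU, against 0.730 to 1.10 CPM with DMSO. Of its genes Tek reached 1.47 CPM, while Pecam1 stayed at or below 0.349 CPM and Cdh5 at or below 0.366 CPM in every library. The part of these markers in the result was not tested.

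**Figure D3:**
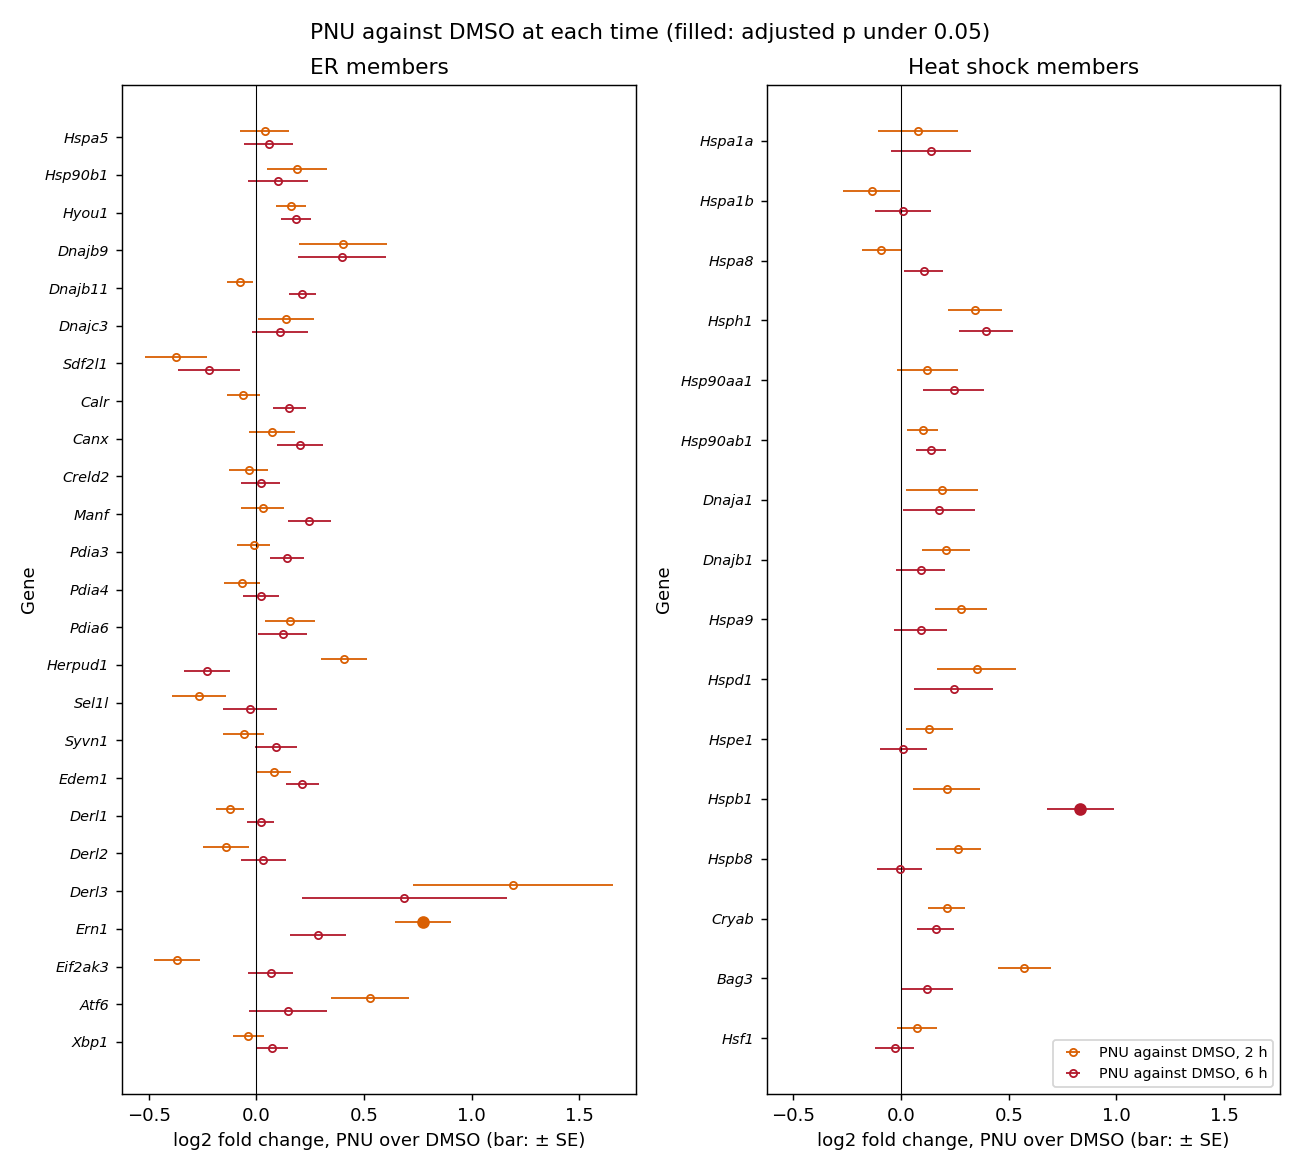
Log2 fold change of each member, PNU over DMSO, with its standard error, for ER members (left) and heat shock members (right); orange is 2 h, red is 6 h, and a filled point passed an adjusted p of 0.05. Ern1 at 2 h and Hspb1 at 6 h are the filled points, and most 6 h points lie right of 0.

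Among the ER chaperones and their co-chaperones, 11 genes, none passed in either comparison of PNU with DMSO. Hspa5, the ER HSP70 BiP, had 974, 857 and 859 CPM in PNU libraries at 2 h, against 806, 798 and 1015 CPM in DMSO libraries. At 6 h, Hspa5 had 1020.5, 839.5 and 821 CPM with PNU, against 857, 866 and 855 CPM with DMSO. Its groups overlapped at both times, with log2 fold changes of 0.04 ± 0.11 (SE) at 2 h and 0.06 ± 0.11 at 6 h. Hsp90b1, the ER HSP90 GRP94, had 1063, 1002 and 980.5 CPM in PNU libraries at 2 h, against 674, 877 and 1121 CPM in DMSO libraries. At 6 h, Hsp90b1 had 922, 937 and 938 CPM with PNU, against 869.9, 883 and 859 CPM with DMSO. At 2 h the DMSO libraries lay on both sides of the PNU libraries, and at 6 h the 3 PNU libraries lay above the 3 DMSO libraries without passing the test (log2 fold change 0.10 ± 0.14, adjusted p = 0.778). Dnajb9, a J-domain partner of BiP that also dampens IRE1, had 29.4, 26.3 and 26.9 CPM in PNU libraries at 2 h, against 13.8, 19.2 and 29.5 CPM in DMSO libraries. At 6 h, Dnajb9 had 29.7, 29.8 and 27.8 CPM with PNU, against 21.3, 23.5 and 21.4 CPM with DMSO. The 6 h groups did not overlap (0.40 ± 0.20, adjusted p = 0.378), and at 2 h DMSO replicate 3 alone stood at the PNU level. Dnajb11, another J-domain partner of BiP, had 132, 121 and 122 CPM in PNU libraries at 2 h, against 132, 133 and 130.3 CPM in DMSO libraries. At 6 h, Dnajb11 had 156, 154 and 146 CPM with PNU, against 131, 129 and 133 CPM with DMSO. Dnajb11 was highest in the PNU libraries at 6 h, but did not pass against DMSO (0.21 ± 0.06, adjusted p = 0.131). Of the other 7, Hyou1, a nucleotide exchange factor for BiP, had a difference of similar size at both times (0.16 ± 0.07 at 2 h and 0.19 ± 0.07 at 6 h, adjusted p = 0.15 and 0.225), with no overlap of the groups at either. Sdf2l1, which keeps BiP clients soluble, was the 1 chaperone with a negative fold change at both times (-0.37 ± 0.14 and -0.22 ± 0.14, neither passing). The secreted ER protein Manf had 0.25 ± 0.10 at 6 h (adjusted p = 0.26), and Calr, Canx, Creld2 and Dnajc3 had 0.02 to 0.20 there.

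The disulfide isomerases Pdia3, Pdia4 and Pdia6, which form and correct disulfide bonds, did not pass in any comparison. Their log2 fold changes lay between -0.07 (Pdia4) and 0.16 (Pdia6) at 2 h and between 0.02 (Pdia4) and 0.14 (Pdia3) at 6 h. At 6 h the PNU libraries of Pdia3 and Pdia6 lay above the DMSO libraries.

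Of the 7 genes of ER-associated degradation, which returns misfolded proteins to the cytosol for the proteasome, Herpud1, a scaffold of the retrotranslocation complex, had the most negative change with time in the PNU groups. Herpud1 had 135, 129.9 and 129 CPM in PNU libraries at 2 h, against 101, 83.4 and 112 CPM in DMSO libraries. At 6 h, Herpud1 had 87.8, 72.0 and 73.7 CPM with PNU, against 93.5, 88.5 and 91.7 CPM with DMSO. All PNU libraries lay above all DMSO libraries at 2 h (log2 fold change 0.41 ± 0.11, adjusted p = 0.0677) and all lay below at 6 h (-0.23 ± 0.11, adjusted p = 0.333), and neither difference passed. Sel1l, which anchors the ubiquitin ligase complex, had -0.27 ± 0.13 at 2 h, and its ligase Syvn1 -0.06 ± 0.10, with overlapping groups in both. The mannosidase-like Edem1, which extracts glycoproteins from folding, had 0.21 ± 0.08 at 6 h with no overlap (adjusted p = 0.209). The derlins Derl1 and Derl2, channel components, lay between -0.14 and 0.03 at both times, and the PNU libraries of Derl1 lay below all DMSO libraries at 2 h. Derl3 was scarce, at 0.623, 0.533 and 0.508 CPM with PNU at 2 h, against 0.176, 0.0934 and 0.441 CPM with DMSO, and its lowest library held 5 counts. Derl3 did not pass (adjusted p = 0.12) although its log2 fold change of 1.19 ± 0.46 was the largest of the set at 2 h.

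Of the 4 genes of ER stress sensing, Ern1 rose at 2 h and the other 3 did not pass against DMSO. Ern1, the kinase and endoribonuclease IRE1α that splices Xbp1 mRNA, had 66.0, 68.4 and 70.1 CPM in PNU libraries at 2 h, against 35.2, 33.9 and 50.5 CPM in DMSO libraries. At 6 h, Ern1 had 44.3, 48.2 and 48.2 CPM with PNU, against 37.0, 40.4 and 38.1 CPM with DMSO. The PNU libraries lay above the DMSO libraries at both times, and Ern1 rose at 2 h (log2 fold change 0.77 ± 0.13, adjusted p = 0.0385), with 0.29 ± 0.13 at 6 h (adjusted p = 0.316). The call at 2 h was lost without PNU replicate 2 (adjusted p = 0.188), PNU replicate 3 (0.204), DMSO replicate 1 (0.117) or DMSO replicate 2 (0.17), in a fit of the 2 h libraries alone (0.266) and when close pairs were summed (0.55). The adjusted p over all alternatives ran from 2.39e-07 to 0.55. Atf6, the sensor that is cleaved in the Golgi to a transcription factor, had 134, 121 and 122 CPM in PNU libraries at 2 h, against 66.2, 73.5 and 122 CPM in DMSO libraries. At 6 h, Atf6 had 73.1, 85.3 and 88.0 CPM with PNU, against 73.0, 74.5 and 75.0 CPM with DMSO. DMSO replicate 3 at 2 h stood level with the PNU libraries, and Atf6 did not pass (0.53 ± 0.18, adjusted p = 0.0958). Eif2ak3, the kinase PERK that phosphorylates eIF2α, had 23.5, 26.9 and 27.4 CPM in PNU libraries at 2 h, against 36.6, 36.0 and 28.0 CPM in DMSO libraries. At 6 h, Eif2ak3 had 38.2, 38.9 and 38.6 CPM with PNU, against 36.2, 35.6 and 38.8 CPM with DMSO. Here the PNU libraries at 2 h were the low ones, all below all DMSO libraries (-0.37 ± 0.11, adjusted p = 0.0761), and the 6 h groups overlapped. Xbp1, the transcription factor downstream of IRE1α, had 90.3, 86.0 and 81.8 CPM in PNU libraries at 2 h, against 89.5, 90.4 and 84.9 CPM in DMSO libraries. At 6 h, Xbp1 had 104, 93.1 and 91.1 CPM with PNU, against 89.6, 91.9 and 92.8 CPM with DMSO. Total Xbp1 had log2 fold changes near 0 (-0.04 ± 0.07 at 2 h and 0.07 ± 0.07 at 6 h), and its splicing was not measured by gene counts.

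None of the 4 cytosolic HSP70 and HSP110 genes passed in any comparison. Hspa1a, a stress-inducible HSP70, had 9.04, 14.8 and 15.5 CPM in PNU libraries at 2 h, against 13.2, 9.86 and 14.2 CPM in DMSO libraries. At 6 h, Hspa1a had 14.7, 13.7 and 13.9 CPM with PNU, against 12.6, 12.3 and 13.5 CPM with DMSO. Hspa1b, its near-identical neighbour, had 53.2, 65.8 and 66.1 CPM in PNU libraries at 2 h, against 77.4, 52.7 and 73.3 CPM in DMSO libraries. The groups overlapped for both inducible genes at 2 h, and at 6 h the PNU libraries of Hspa1a lay just above the DMSO libraries. At 6 h, Hspa1b had 68.4, 70.2 and 74.5 CPM with PNU, against 72.2, 69.6 and 70.0 CPM with DMSO. The pair shares sequence: 46.0% of the 150-base windows of Hspa1a and 40.5% of those of Hspa1b occur in another gene's transcript, and the rule for counting such reads is given in none of the sources used here. Summed into 1 feature, Hspa1a and Hspa1b had a log2 fold change of -0.10 ± 0.14 at 2 h (adjusted p = 0.626) and 0.03 ± 0.14 at 6 h (adjusted p = 0.943). Hspa8, the constitutive HSP70, had 991, 931 and 945 CPM in PNU libraries at 2 h, against 1045, 917 and 1093 CPM in DMSO libraries. At 6 h, Hspa8 had 869, 1040.2 and 1046 CPM with PNU, against 908, 912 and 928 CPM with DMSO. Its groups overlapped at both times. Hsph1, the HSP110 exchange factor of HSP70, had 128, 132 and 132 CPM in PNU libraries at 2 h, against 85.5, 93.7 and 129.8 CPM in DMSO libraries. At 6 h, Hsph1 had 118, 127 and 129.7 CPM with PNU, against 94.7, 95.7 and 94.9 CPM with DMSO. The 3 PNU libraries of Hsph1 lay above all DMSO libraries at 6 h (0.39 ± 0.13, adjusted p = 0.158) and above DMSO replicates 1 and 2 at 2 h (0.34 ± 0.13, adjusted p = 0.107).

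The cytosolic HSP90 and J-domain genes did not pass either. Hsp90aa1, the inducible HSP90, had 463, 423 and 422 CPM in PNU libraries at 2 h, against 309, 386 and 507 CPM in DMSO libraries. At 6 h, Hsp90aa1 had 383, 423 and 417 CPM with PNU, against 332, 346 and 355 CPM with DMSO. At 6 h the groups did not overlap (0.24 ± 0.14, adjusted p = 0.443), and at 2 h DMSO replicate 3 was the highest library. Hsp90ab1 had 2034, 2139 and 2141 CPM in PNU libraries at 2 h, against 1977, 1859 and 2056 CPM in DMSO libraries. At 6 h, Hsp90ab1 had 1887, 2102 and 2100.2 CPM with PNU, against 1845, 1841 and 1844 CPM with DMSO. Its DMSO libraries at 6 h lay close together and below every PNU library (0.14 ± 0.07, adjusted p = 0.379). Dnajb1, the HSP40 that loads clients onto HSP70, had 98.2, 94.6 and 94.0 CPM in PNU libraries at 2 h, against 82.1, 69.2 and 96.9 CPM in DMSO libraries. At 6 h, Dnajb1 had 70.3, 86.7 and 81.1 CPM with PNU, against 74.6, 74.5 and 74.4 CPM with DMSO. Both comparisons of Dnajb1 overlapped. Dnaja1, another HSP40, had 0.19 ± 0.17 at 2 h and 0.18 ± 0.17 at 6 h. For Hsp90aa1, 36.2% of 150-base windows occur in transcripts of other genes, and for Hspa8 and Dnaja1 22.4% and 20.0%, so their levels are uncertain to that extent.

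The 3 mitochondrial chaperones did not pass against DMSO at either time. Hspd1, the mitochondrial chaperonin HSP60, had 308, 325 and 319 CPM in PNU libraries at 2 h, against 182, 228 and 336 CPM in DMSO libraries. At 6 h, Hspd1 had 207, 276 and 277 CPM with PNU, against 209, 215 and 218 CPM with DMSO. PNU libraries at 2 h exceeded DMSO replicates 1 and 2 but not replicate 3, and PNU replicate 1 at 6 h was the lowest of that time. Its log2 fold changes were 0.35 ± 0.18 at 2 h and 0.25 ± 0.18 at 6 h (adjusted p = 0.214 and 0.566), and 18.6% of its 150-base windows also occur in the pseudogene Hspd1-ps3. Hspe1, the co-chaperonin transcribed from the same divergent promoter, had 0.13 ± 0.11 and 0.01 ± 0.11, and Hspa9, the mitochondrial HSP70, 0.28 ± 0.12 and 0.09 ± 0.12, with 0 of these passing.

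Small heat shock proteins, which hold unfolding proteins without ATP, gave the heat shock member that passed against DMSO. Hspb1, HSP25 in mouse, had 29.0, 36.2 and 36.0 CPM in PNU libraries at 2 h, against 34.2, 24.8 and 28.4 CPM in DMSO libraries. At 6 h, Hspb1 had 35.7, 51.3 and 52.0 CPM with PNU, against 26.6, 25.9 and 25.5 CPM with DMSO. All 3 PNU libraries at 6 h lay above every DMSO library, replicate 1 by the least, and Hspb1 rose (log2 fold change 0.83 ± 0.16, adjusted p = 0.0322), with 0.21 ± 0.16 and overlapping groups at 2 h (adjusted p = 0.362). The call at 6 h was lost without PNU replicate 2 (adjusted p = 0.167), PNU replicate 3 (0.162), DMSO replicate 1 (0.146), DMSO replicate 2 (0.175) or DMSO replicate 3 (0.176). It was also lost when close pairs were summed (0.9999), and the adjusted p over all alternatives ran from 0.000101 to 0.9999. A share of 36.6% of its 150-base windows also occurs in the pseudogenes Hsp25-ps1 and Gm9817. Cryab, αB-crystallin, had 285, 329 and 322 CPM in PNU libraries at 2 h, against 298, 244 and 266 CPM in DMSO libraries. At 6 h, Cryab had 292, 282 and 284 CPM with PNU, against 261, 257 and 250.0 CPM with DMSO. Cryab was higher in every PNU library than in every DMSO library at 6 h without passing (0.16 ± 0.08, adjusted p = 0.396), and 10.6% of its windows also occur in Hspb2. Hspb8, which works with BAG3 in chaperone-assisted autophagy, had 0.27 ± 0.10 at 2 h and -0.01 ± 0.10 at 6 h.

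The co-chaperone gene Bag3 and Hsf1 did not pass against DMSO either. Bag3, a nucleotide exchange factor of HSP70, had 279, 244 and 250.1 CPM in PNU libraries at 2 h, against 179, 138 and 203 CPM in DMSO libraries. At 6 h, Bag3 had 192, 168 and 172 CPM with PNU, against 166, 163 and 161 CPM with DMSO. Every PNU library of Bag3 exceeded every DMSO library at both times, and neither difference passed (0.57 ± 0.12, adjusted p = 0.0583 at 2 h and 0.12 ± 0.12, adjusted p = 0.683 at 6 h). Hsf1, the transcription factor of the heat shock response, had 73.5, 72.7 and 76.7 CPM in PNU libraries at 2 h, against 81.0, 62.7 and 68.0 CPM in DMSO libraries. At 6 h, Hsf1 had 60.8, 66.7 and 68.6 CPM with PNU, against 65.6, 67.5 and 67.1 CPM with DMSO. The groups overlapped for Hsf1 at both times.

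Between 6 h and 2 h within the PNU groups, 6 of 41 members passed, a share near the 16.1% of all tested genes (7.42% higher and 8.66% lower). Eif2ak3 and Dnajb11 rose and Herpud1, Ern1, Atf6 and Bag3 fell, which makes 5 of 25 ER and 1 of 16 heat shock members. The fallen ER members were the sensors Ern1 and Atf6 and the scaffold Herpud1, while the sensor PERK went the other way. In GRCm38 the genes not yet placed were Herpud1 (ENSMUSG00000031770) at chr8:94386438-94395377 on the plus strand, Atf6 (ENSMUSG00000026663) at chr1:170704674-170867771 on the minus strand and Bag3 (ENSMUSG00000030847) at chr7:128523616-128546981 on the plus strand. The others were Eif2ak3 (ENSMUSG00000031668) at chr6:70844515-70905245 on the plus strand and Dnajb11 (ENSMUSG00000004460) at chr16:22857845-22879634 on the plus strand. Log2 fold changes, 6 h over 2 h, were -0.75 ± 0.11 for Herpud1 (adjusted p = 0.00413), -0.54 ± 0.13 for Ern1 (0.0216), -0.61 ± 0.18 for Atf6 (0.0436) and -0.54 ± 0.12 for Bag3 (0.0184). For Eif2ak3 the value was 0.57 ± 0.11 (0.00898) and for Dnajb11 0.28 ± 0.06 (0.0173). In these 6 genes all 3 libraries at 6 h lay on 1 side of all 3 at 2 h, as they did for 23 of the 41 members, against 51.1% of all genes. ER members were positive in 17 of 25 cases (median log2 value 0.11) and heat shock members in 4 of 16 (median -0.12), against 52.4% of all genes (median 0.03). The 3 mitochondrial chaperones were all negative, from -0.35 to -0.30, with Hspe1 nearest to the threshold (adjusted p = 0.0515). At an unadjusted p under 0.05 there were 16 members, against 35.1% of all genes.

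Herpud1 and Eif2ak3 kept their calls with any of the 6 PNU libraries left out, at adjusted p of at most 0.0267 for Herpud1 and 0.0386 for Eif2ak3. Ern1 (0.0535 to 0.0788) and Atf6 (0.0831 to 0.125) lost theirs with any of these libraries left out. Bag3 kept its call only without PNU at 6 h replicate 1 (0.0253) and lost it without each of the others (0.0516 to 0.0661). Dnajb11 lost its call without PNU at 2 h replicate 2 or 3 (0.077 each) or PNU at 6 h replicate 2 (0.0614). With near-identical libraries summed, 0 of the 41 passed, against 0 of 18400 genes (0%), and 5 members had an unadjusted p under 0.05, against 2236 of all genes. Herpud1 and Eif2ak3 each overlap an annotated gene on the opposite strand, Atf6 and Bag3 another gene on their own strand, and whether the counting used strand is given in none of the sources used here. The summed leukocyte and microglia markers also differed with time, at 7.38 to 9.23 CPM with PNU at 6 h, against 3.91 to 5.03 CPM with PNU at 2 h. The summed Müller markers, mostly Vim, stood at 6546 to 7512 CPM with PNU at 6 h, against 7744 to 7921 CPM with PNU at 2 h. The mitochondrial share of counts was 1.14% to 1.26% with PNU at 6 h, against 0.933% to 0.971% with PNU at 2 h, without overlap. Their part in these changes was not tested.

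**Figure D4:**
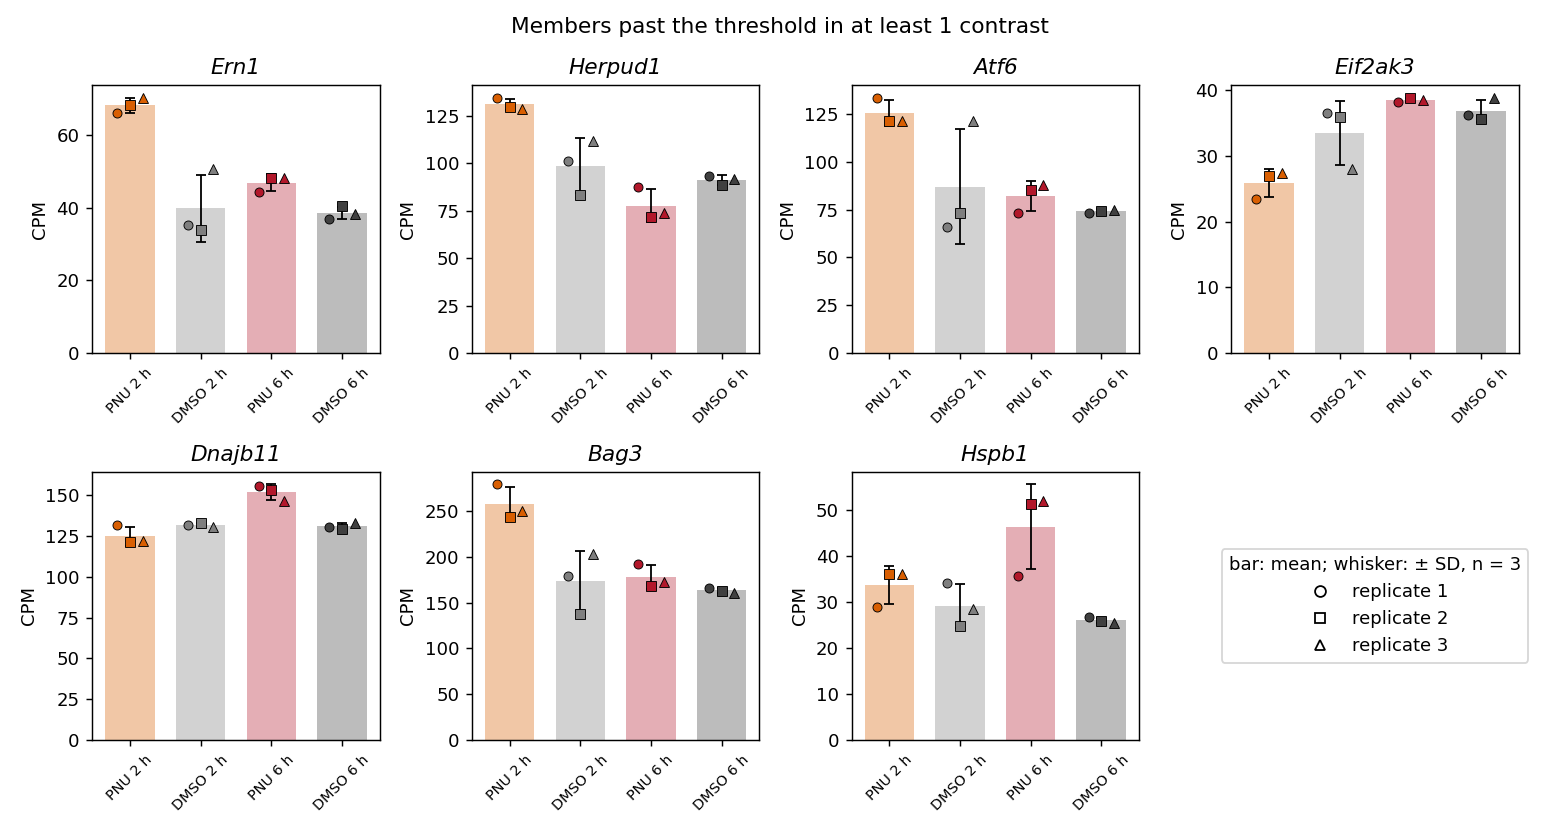
CPM of the 7 members past the threshold in at least 1 comparison, by group; bars are means, whiskers ± SD over 3 libraries, and the symbols mark replicates 1 to 3. Ern1, Herpud1, Atf6 and Bag3 are highest in PNU at 2 h, Eif2ak3 is lowest there, and Dnajb11 and Hspb1 are highest in PNU at 6 h.

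Within the DMSO groups, 6 h against 2 h called 0 of 41 members and 0 of all 17164 genes (0%), with 1 member, Pdia6, at an unadjusted p under 0.05, against 4.77% of all genes; DESeq2 called 0 members and 23 genes (0.134%), and limma-voom 0 and 0. Fold changes were positive in 7 of 25 ER members (median -0.02) and in 2 of 16 heat shock members (median -0.11), against 46.8% of all genes (median -0.01). Without DMSO at 2 h replicate 3 both medians were above 0, at 0.02 for ER and 0.01 for heat shock members. Herpud1 had -0.12 ± 0.11 in DMSO, and Ern1 -0.05 ± 0.13. DMSO at 2 h was the most scattered of the groups, with replicate 3 apart from the other libraries.

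Whether the PNU effect differed with time, at 6 h minus at 2 h, was tested as an interaction, and 0 of 41 members passed, against 0.035% of all tested genes (6 of 17164). At an unadjusted p under 0.05 there were 6 members, against 11.3% of all genes. They were Herpud1 (-0.64 ± 0.15), Ern1 (-0.49 ± 0.18) and Bag3 (-0.45 ± 0.17), lower at 6 h, and Hspb1 (0.62 ± 0.22), Eif2ak3 (0.44 ± 0.15) and Dnajb11 (0.29 ± 0.09), higher. DESeq2 called Herpud1 and Dnajb11, against 1.63% of all genes. Without DMSO at 2 h replicate 3 the count was 9, against 16.7% of all genes. ER members were positive in 17 of 25 cases (median 0.11) and heat shock members in 7 of 16 (median -0.03, and -0.12 to 0.03 with single libraries left out), against 54% of all genes (median 0.03).

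A further 104 genes of the same pathways, in lists of ER stress factors, translocation, other ER folding and degradation genes, HSP90 and HSP70 co-chaperones, other heat shock genes, the TRiC chaperonin and mitochondrial proteases, were tested beside the set. At 2 h 0 of 104 passed (0.291% of all genes did), with 35 at an unadjusted p under 0.05, against 30% of all genes. Fold changes were positive in 64 of the 104, against 48.3% of all genes. At 6 h 1 rose, Pdia5, a disulfide isomerase of the ER (0.52 ± 0.11, adjusted p = 0.0468), against 1.05% of all genes, with 13 at an unadjusted p under 0.05, against 15.6% of all genes. Of all genes, 181 were called at 6 h. That number was 22 to 38 without PNU replicate 2, PNU replicate 3 or any single DMSO library, and 1057 without PNU replicate 1. Whether Pdia5 kept its call there is not given here. Pdia5 had -0.13 ± 0.11 at 2 h and rose between 2 h and 6 h in the PNU groups (0.45 ± 0.11, adjusted p = 0.0211). In that comparison 4 of the 104 rose and 10 fell, against 16.1% of all genes, and in DMSO 0 passed over time. All 8 TRiC genes, which fold actin and tubulin, had positive fold changes at 6 h (median 0.16), against 49.3% of all genes. At 2 h 7 of 8 were positive (median 0.22), against 48.3% of all genes, and 0 passed at either time. Signs are not given here for each of the other lists.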

How the data were processed

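RNA sequencing of 12 libraries of mouse glia was used, 3 for each of 4 groups (PNU or DMSO, 2 h or 6 h). The authors deposited raw counts of reads per gene and a gene length for each library. Per the submitters' processing notes, the tools were fastp 0.23.2, STAR 2.5.2b and featureCounts of Subread 1.5.2 on GRCm38, and DESeq2 is named there with no role. Strand setting, treatment of reads with several matches and annotation release are not given in the sources used here.

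The members and lists were chosen with earlier results of these data known. Symbols came from a table that matched 48970 of 49315 gene identifiers. Low genes were removed with filterByExpr, leaving 17164. Library sizes were scaled by TMM, and 1 model of 4 group means was fitted by robust quasi-likelihood in edgeR 4.0.16 (R 4.3.3, common biological coefficient of variation 0.198). Its 5 contrasts were PNU against DMSO at each time, 6 h against 2 h within each treatment, and the difference of the PNU effects, with Benjamini-Hochberg adjustment over all tested genes and a threshold of 0.05. Standard errors are the log2 fold change over the square root of F. TPM used the deposited gene lengths, and log2 levels used CPM plus 0.5. The scripts were tested on simulated data. Genes named with values in every library were the members past the threshold and chief members of each role, and Derl3 was added after its values were seen. Of the further pathway genes, those past the threshold against DMSO were named.

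Alternatives were no filter and a stricter filter, RLE scaling, DESeq2 1.42.0, limma-voom (limma 3.58.1), the libraries of a contrast alone, a block for the replicate number, near-identical libraries summed, both libraries that stand apart left out, and each library left out. Replicate numbers were shared by all groups, and the main fit did not use them as pairs in any contrast. Within PNU over time, same-numbered libraries correlated at 0.256, 0.199 and 0.191 in their deviations from the group means. Libraries 2 and 3 also correlated there across numbers (0.181 and 0.196). Promoter starts are RefSeq's (GRCm38.p6) and can differ from the gene models of the counts: those of several members, among them Hspa5, Hsp90b1, Pdia3, Pdia6, Hsph1, Ern1 and the printed Hspe1 and Calr, start inside the RefSeq window. Libraries held 44332013 to 66518799 counts, and in the close pairs counting error is a sizeable part of the spread.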

Additional observations from a re-analysis of the deposited data

Results flagged for a closer look

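Herpud1 had PNU effects of opposite sign at the 2 times: all 3 PNU libraries lay above all 3 DMSO libraries at 2 h, and all 3 lay below them at 6 h. Of all tested genes, 11.4% lay above in this way at 2 h and 18.7% lay below at 6 h. The share of all genes that did both was not counted, so the flag does not set Herpud1 apart from other genes. The log2 PNU effect at 6 h minus that at 2 h was -0.64 ± 0.15 (SE), and edgeR's test of this difference did not pass (adjusted p = 0.179). DESeq2 gave an adjusted p of 0.0196, and without DMSO at 2 h replicate 3 the difference was -0.74 with an adjusted p of 0.0043 in edgeR. With near-identical libraries summed the adjusted p was 1, the highest of the alternatives, and with both libraries that stand apart left out it was 0.000335, the lowest. The gene overlaps another on the opposite strand, and the part of its reads in the counts was not tested.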

How the results depend on the processing

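At 2 h the count of members past the threshold, 1 as reported, was 2 without the low-count filter (Bag3 and Ern1; 0.427% of all genes), 5 with DESeq2 (14.6% of all genes), 0 with the 2 h libraries alone and with near-identical libraries summed (0% of all genes in both), 21 with both libraries that stand apart left out (52.2% of all genes), and 0 to 21 with single libraries left out. The ER median log2 fold change at 2 h was 0.12 with both left out and -0.026 to 0.12 with single libraries left out. At 6 h the count was 2 with DESeq2 (Dnajb11 and Hspb1; 5.38% of all genes), 11 with the 6 h libraries alone (10.1%), 0 with near-identical libraries summed, 15 with both left out (28.6%) and 0 to 1 with single libraries left out. The difference of the PNU effects had 2 members with DESeq2, 10 with both left out (21.8% of all genes) and 0 to 9 with single libraries left out. Over time in PNU, 6 as reported, the count was 13 with the PNU libraries alone (32.1%), 0 with near-identical libraries summed, 12 with both left out (35.4%) and 2 to 5 with single libraries left out. Where 1 sample was left in a group, it was assumed to vary like the other groups. With single libraries left out, the shares of all genes called were 0% to 43.8% at 2 h and 0.124% to 6% at 6 h. For the difference of the PNU effects these shares were 0% to 16.7%, and over time in PNU 3.21% to 9.71%. The cause of the shifts in the counts was not tested.

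With a replicate block the count at 2 h was 2 (Bag3, adjusted p = 0.044, and Ern1, 0.0293, against 1.81% of all genes). Same-numbered libraries correlated there at -0.05 to 0.04, and the numbers were not taken as pairs. Blocking kept 6 members over time in PNU, the same 6, and changed no other call of a member. Of the other values recomputed, 1582 stayed on their side of the threshold, 62 passed anew and 40 no longer passed. The sign changed in 69 of them, none past the threshold, and in 10 recomputed list medians. In every alternative tried the fold change kept its sign for 28 of 41 members at 2 h, 33 at 6 h, 34 over time in PNU, 26 for the difference of the PNU effects and 12 over time in DMSO. Derl3 had 5 counts in its lowest library.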

Other observations

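Among the other folding genes that changed over time in the PNU groups, chosen for naming after their values were seen, Fkbp5, an immunophilin co-chaperone of HSP90 that glucocorticoids induce, fell most (log2 fold change, 6 h over 2 h, -1.65 ± 0.23, adjusted p = 0.00372 in edgeR). Trib3 (-1.11 ± 0.30, adjusted p = 0.0327), a target of ATF4, and Atf4 itself (-0.73 ± 0.11, adjusted p = 0.00467) fell too. Edem2 (0.51) and Rnf5 (0.32), both of ER-associated degradation, rose. Of the 104 further genes, 0 passed over time in DMSO, where 2 had an unadjusted p under 0.05.

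The ER members were also divided by whether the promoter window held an ER stress element or ERSE-II. The 11 with a match had a median log2 fold change, PNU over DMSO, of 0.07 at 2 h and 0.11 at 6 h, and the 10 without had -0.05 at 2 h and 0.07 at 6 h. Over time in PNU the medians were -0.0048 with a match and 0.16 without. Herpud1, which fell, and Dnajb11, which rose, both hold ERSE-II.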
